A study of Mus musculus with 6 samples.

Results

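The vacuolar H+-ATPase (V-ATPase) and the genes that mark intercalated cells were examined in the renal cortex of C57BL/6 mice. The set held 23 V-ATPase subunit and accessory genes and 9 transporters, receptors and markers of intercalated cells. These 32 genes were listed by name, with earlier results of these data known. All 32 were present among the 24346 genes of each library, and all 32 passed the filter on low values, a level of 1 FPKM or more in 3 or more libraries. One group of 3 mice ate the HF/HC/HS/BA diet (high in fat and cholesterol, with bile salt) together with tofogliflozin for 8 weeks. The other 3 mice ate the same diet for 8 weeks without the drug. The sample titles call the groups with and without the drug NASHTofo and NASH. The part HS of the diet name is not spelled out here. Tofogliflozin blocks SGLT2, which takes glucose back up in the proximal tubule. The age and sex of the mice are not in the labels, and no mice on ordinary chow are included.

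The V-ATPase is a rotary proton pump. A cytosolic V1 sector hydrolyses ATP and turns a membrane V0 sector that carries protons across the membrane. Nearly every cell uses it to acidify lysosomes and endosomes. Intercalated cells of the connecting tubule and collecting duct also place it in the plasma membrane, where type A cells secrete acid and type B cells secrete bicarbonate. Several subunits exist in a widely used form and in a form restricted to few tissues. Of these, a4, d2, B1, C2 and G3 are found in intercalated cells, and loss of B1 or a4 causes distal renal tubular acidosis in humans.

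Judged by low FPKM values of single-transcript genes within a fixed range, the libraries held roughly 7660000 to 9840000 fragments each. On that estimate 29 of the members rested on at least 178 fragments in each library. Atp6v1g2 was the thinnest, at about 32.3 to 71.3 fragments, and Foxi1 and Kit rested on at least about 116 and 130. Libraries were alike over all tested genes, with pairwise correlations of log2 values from 0.980 to 0.990. The proximal tubule marker Slc34a1 was at 2128 to 2292 FPKM with tofogliflozin and 2286 to 2645 FPKM on diet alone. The libraries are bulk RNA, so fewer cells of a type and less RNA per cell cannot be told apart.

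None of the 32 members passed the threshold in the comparison of tofogliflozin with diet (limma, Benjamini-Hochberg adjusted p under 0.05 over 12248 tested genes), where 0.253% of all tested genes did (0.196% with the higher mean with tofogliflozin and 0.0572% with the lower). Before adjustment 9 members had a limma p under 0.05. Tofogliflozin had the higher mean in 8 of them and the lower mean in 1, while 6.7% of all tested genes met that p with a higher mean and 6.39% with a lower one. The same 9 genes had groups whose libraries did not overlap. This separation was found for 18.5% of all tested genes, 9.63% in the higher direction and 8.86% in the lower. The 9 genes were the intercalated cell subunits Atp6v0a4, Atp6v0d2, Atp6v1b1, Atp6v1c2 and Atp6v1g3, the ammonia channel Rhcg, the G2 subunit Atp6v1g2, and the ubiquitous subunits Atp6v1d and Atp6v0a2. The count by p was 5 without tofogliflozin replicate 3 (8.71% of all tested genes in that setting) and 5 without diet replicate 1 (9.48%), against 13.1% of all tested genes with all libraries. The count of separated genes was 15 without tofogliflozin replicate 2 and 14 without diet replicate 2, where 31% and 34.6% of all tested genes were also separated.

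The 5 subunit forms found in intercalated cells all lay on the same side. The median log2 change of the 5 was 0.38 (range 0.25 to 0.44), against a median of -0.00075 over all tested genes. After quantile normalization 3 of the 5 had their libraries apart, where 20% of all tested genes did in either direction. In that setting 4 of the 5 had an unadjusted limma p under 0.05 (0.080 for Atp6v0a4), and all 5 changes stayed above 0. Atp6v1c2, which encodes the C2 subunit of the stalk that joins both sectors, had the smallest p of the set. It was at 22.0, 20.03 and 22.5 FPKM with tofogliflozin, against 17.2, 14.8 and 16.9 FPKM on diet alone. The tofogliflozin libraries were close together and all above the highest diet library. The log2 change was 0.38 ± 0.09 (SE, 95% interval 0.18 to 0.58; limma adjusted p = 0.129).

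Atp6v1g3, the G3 subunit of the peripheral stalk, was at 30.6, 23.3 and 28.0 FPKM with tofogliflozin, against 17.0, 19.9 and 22.6 FPKM on diet. Its lowest tofogliflozin library, replicate 2, stood just above the highest diet library, replicate 3. The log2 change was 0.44 ± 0.13 (SE; limma adjusted p = 0.212), and the ratio of the group means was 1.37. Atp6v0d2, the d2 subunit that links the V0 ring to the central stalk, was at 19.5, 16.1 and 18.9 FPKM with tofogliflozin, against 11.7, 13.7 and 15.9 FPKM on diet. Tofogliflozin replicate 2 and diet replicate 3 were again almost level. The log2 change was 0.38 ± 0.12 (SE; limma adjusted p = 0.232).

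Atp6v0a4 and Atp6v1b1, both known from human distal renal tubular acidosis, were the most abundant of the 5. Atp6v0a4, the a4 subunit that forms the proton half-channels, was at 173, 156 and 203 FPKM with tofogliflozin, against 146, 146 and 145 FPKM on diet. Diet libraries were nearly identical, and the spread lay among the tofogliflozin libraries, where replicate 3 was highest. The means were 177 ± 23.4 FPKM with tofogliflozin and 146 ± 0.572 FPKM on diet (SD, n = 3 each), a log2 change of 0.27 ± 0.10 (SE; limma adjusted p = 0.290). Without tofogliflozin replicate 3 the change was 0.17. Atp6v1b1, the B1 subunit of the catalytic head, was at 81.4, 69.4 and 83.5 FPKM with tofogliflozin, against 64.9, 65.2 and 66.5 FPKM on diet. It had the same shape, with tight diet libraries and tofogliflozin replicate 2 lowest of its group. The log2 change was 0.25 ± 0.08 (SE; limma adjusted p = 0.270).

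**Figure D1:**
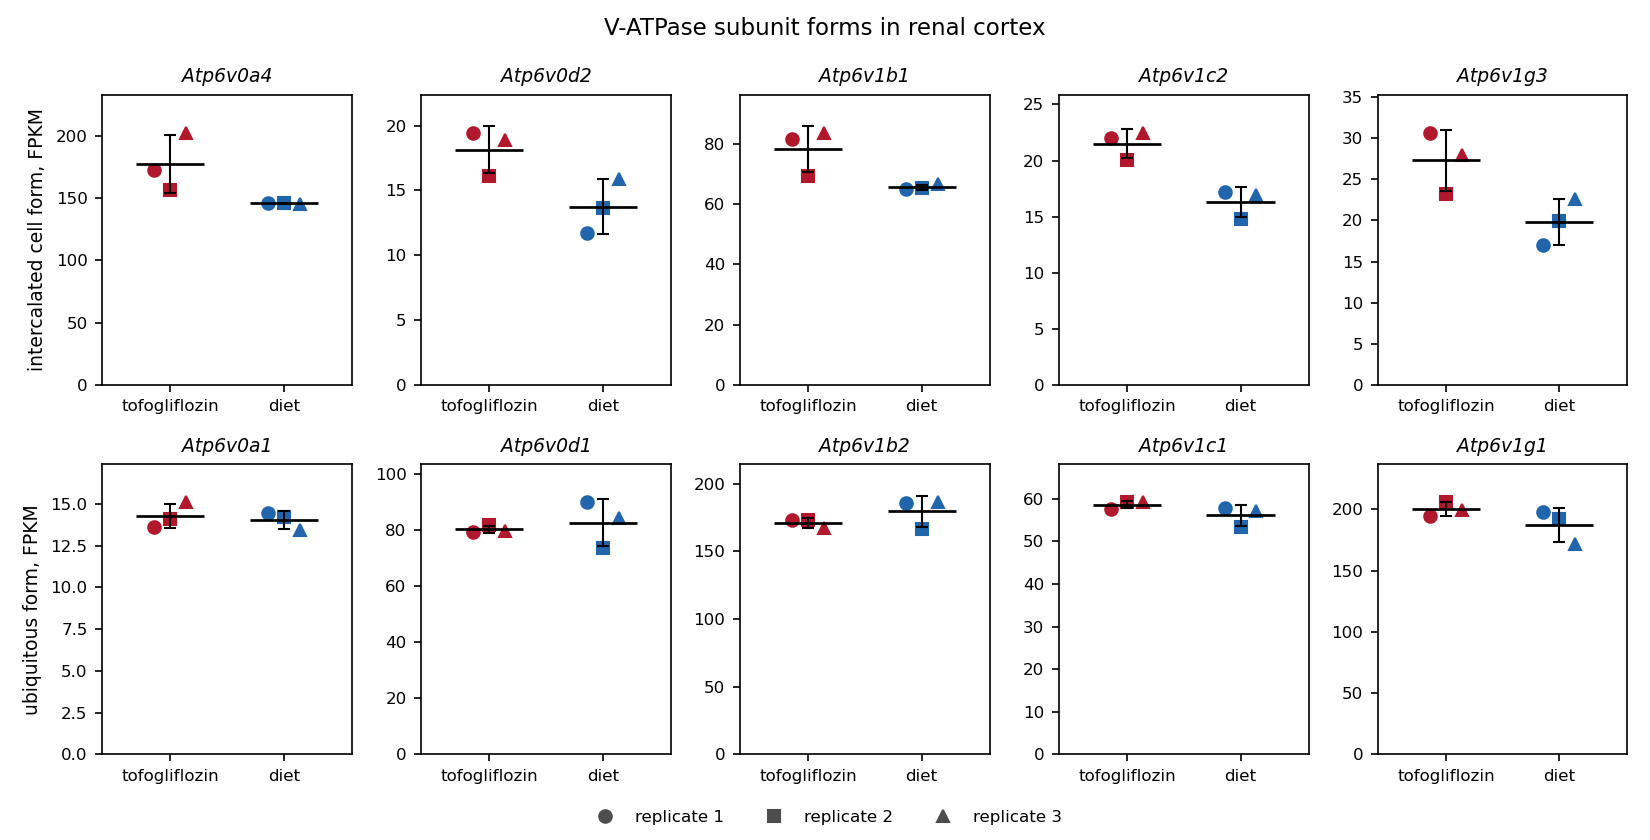
FPKM of the intercalated cell form (top row) and of a ubiquitous form (bottom row) of 5 V-ATPase subunits, 1 point per library, with the group mean as a line and the SD as a bar (3 libraries per group, linear axes from 0). In the top row the tofogliflozin libraries lie above the diet libraries in each panel, as for Atp6v1c2 at 20.03 to 22.5 against 14.8 to 17.2 FPKM, while in the bottom row the groups overlap.

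The files were made on mm10, which is GRCm38. In the GENCODE annotation of that build Atp6v0a4 spans 38048483 to 38124586 on the minus strand of chromosome 6. Atp6v1b1 spans 83742990 to 83758855 on the plus strand of the same chromosome. Atp6v0d2 lies on chromosome 4 from 19876841 to 19922605 (minus strand), Atp6v1c2 on chromosome 12 from 17284721 to 17329359 (minus strand), and Atp6v1g3 on chromosome 1 from 138273738 to 138289462 (plus strand). The values are for whole genes and do not tell exons or transcripts apart. The library kit keeps strand, per the labels, but no source used here says whether the counting did. Atp6v0a4 shares 62 exonic bases with Tmem213 on the opposite strand and 259 with D630045J12Rik on its own strand, of 4973 exonic bases. Atp6v1c2 shares 50 of 2174 exonic bases with Pdia6 on the opposite strand. Tmem213 lay in the same direction as Atp6v0a4, at 159, 162 and 156 FPKM with tofogliflozin, against 121, 134 and 121 FPKM on diet. D630045J12Rik, at 8.07 to 8.92 FPKM with tofogliflozin and 10.2 to 10.8 FPKM on diet, and Pdia6, at 95.7 to 106 FPKM with tofogliflozin and 113.5 to 124 FPKM on diet, lay in the other direction. The part of shared bases in the values was not tested.

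The ubiquitous V-ATPase subunits, which are not limited to any cell type or to lysosomes and endosomes, mostly overlapped between groups. Which part of their transcripts came from intercalated cells was not tested. Mean levels of the 14 ran from 14.2 FPKM for Atp6v0a1 to 365 FPKM for Atp6v0c, which encodes the proteolipid of the rotor ring. Among the 14, the log2 change exceeded 0 in 9 and its median was 0.03, while 49.7% of all tested genes were above 0. No limma p was under 0.05 for 12 of the 14. Summed over the 14, the level was 2170 to 2300 FPKM with tofogliflozin and 2080 to 2260 FPKM on diet.

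In the V1 head, Atp6v1a, the catalytic A subunit, was at 155, 164 and 170.0 FPKM with tofogliflozin, against 163, 164 and 150 FPKM on diet. Its partner Atp6v1b2, the ubiquitous B2 subunit, was at 173, 173 and 167 FPKM with tofogliflozin, against 185, 167 and 186 FPKM on diet. Groups overlapped for both genes. The log2 change of Atp6v1b2 was -0.07 (95% interval -0.24 to 0.10; limma adjusted p = 0.754). Among the stalk subunits, Atp6v1c1 (C1) was at 57.6, 59.1 and 59.2 FPKM with tofogliflozin, against 57.9, 53.4 and 57.2 FPKM on diet. Atp6v1g1 (G1) was at 195, 206 and 199.8 FPKM with tofogliflozin, against 198, 192 and 172 FPKM on diet. Atp6v1e1, Atp6v1f and Atp6v1h, which encode the E1, F and H subunits, had log2 changes of 0.11, 0.08 and 0.07, with limma adjusted p from 0.614 to 0.715.

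Atp6v1d, the D subunit of the central shaft, was the 1 ubiquitous gene whose tofogliflozin libraries all lay above diet. It was at 99.1, 98.1 and 96.1 FPKM with tofogliflozin, against 84.5, 87.1 and 89.2 FPKM on diet. The ratio of the means was 1.12 and the log2 change 0.17 ± 0.06 (SE; limma adjusted p = 0.308). In the V0 sector Atp6v0a2, the a2 subunit of Golgi and endosomes, lay in the opposite direction. It was at 15.6, 17.9 and 16.2 FPKM with tofogliflozin, against 21.9, 19.3 and 18.8 FPKM on diet. Its log2 change was -0.26 ± 0.09 (SE, 95% interval -0.46 to -0.05; limma adjusted p = 0.272).

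The remaining V0 genes overlapped between groups. Atp6v0a1 (a1) was at 13.6, 14.1 and 15.1 FPKM with tofogliflozin, against 14.5, 14.2 and 13.4 FPKM on diet. Atp6v0d1 (d1) was at 79.4, 81.8 and 79.9 FPKM with tofogliflozin, against 90.0, 73.5 and 84.5 FPKM on diet. Both had their tofogliflozin libraries inside or close to the diet range. Atp6v0b (c'') and Atp6v0e (e1) had log2 changes of -0.01 and -0.02. Atp6v0c had a log2 change of 0.01 (95% interval -0.24 to 0.27). A processed copy, Atp6v0c-ps2, was listed at 205 to 272 FPKM with tofogliflozin and 208 to 309 FPKM on diet, so reads may be split between both and the value of Atp6v0c is uncertain. The accessory proteins Atp6ap1 (Ac45) and Atp6ap2 (the prorenin receptor) had log2 changes of 0.01 and 0.11, with overlapping libraries.

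Atp6v1g2 and Atp6v0e2 encode the G2 and e2 forms, which are best known from neurons. Atp6v1g2 was at 3.85, 3.58 and 3.94 FPKM with tofogliflozin, against 2.90, 2.80 and 2.08 FPKM on diet, the lowest levels of the set. The groups did not overlap, and the log2 change was 0.42 ± 0.12 (SE; limma adjusted p = 0.206). In the library with the fewest fragments, the counting error alone was about 17.6% of its value. Atp6v1g2 shares 144 of 2510 exonic bases with Nfkbil1 on the opposite strand. Nfkbil1 was at 7.93, 8.3 and 6.73 FPKM with tofogliflozin, against 7.12, 5.71 and 6.54 FPKM on diet. Its groups overlapped, with the higher mean with tofogliflozin, as for Atp6v1g2. The part of the shared bases in Atp6v1g2 was not tested. Atp6v0e2 was at 26.8, 33.1 and 30.0 FPKM with tofogliflozin, against 20.97, 26.6 and 26.8 FPKM on diet. Tofogliflozin replicate 1 lay marginally below diet replicate 3 (log2 change 0.27, and 0.16 without diet replicate 1; limma adjusted p = 0.385).

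**Figure D2:**
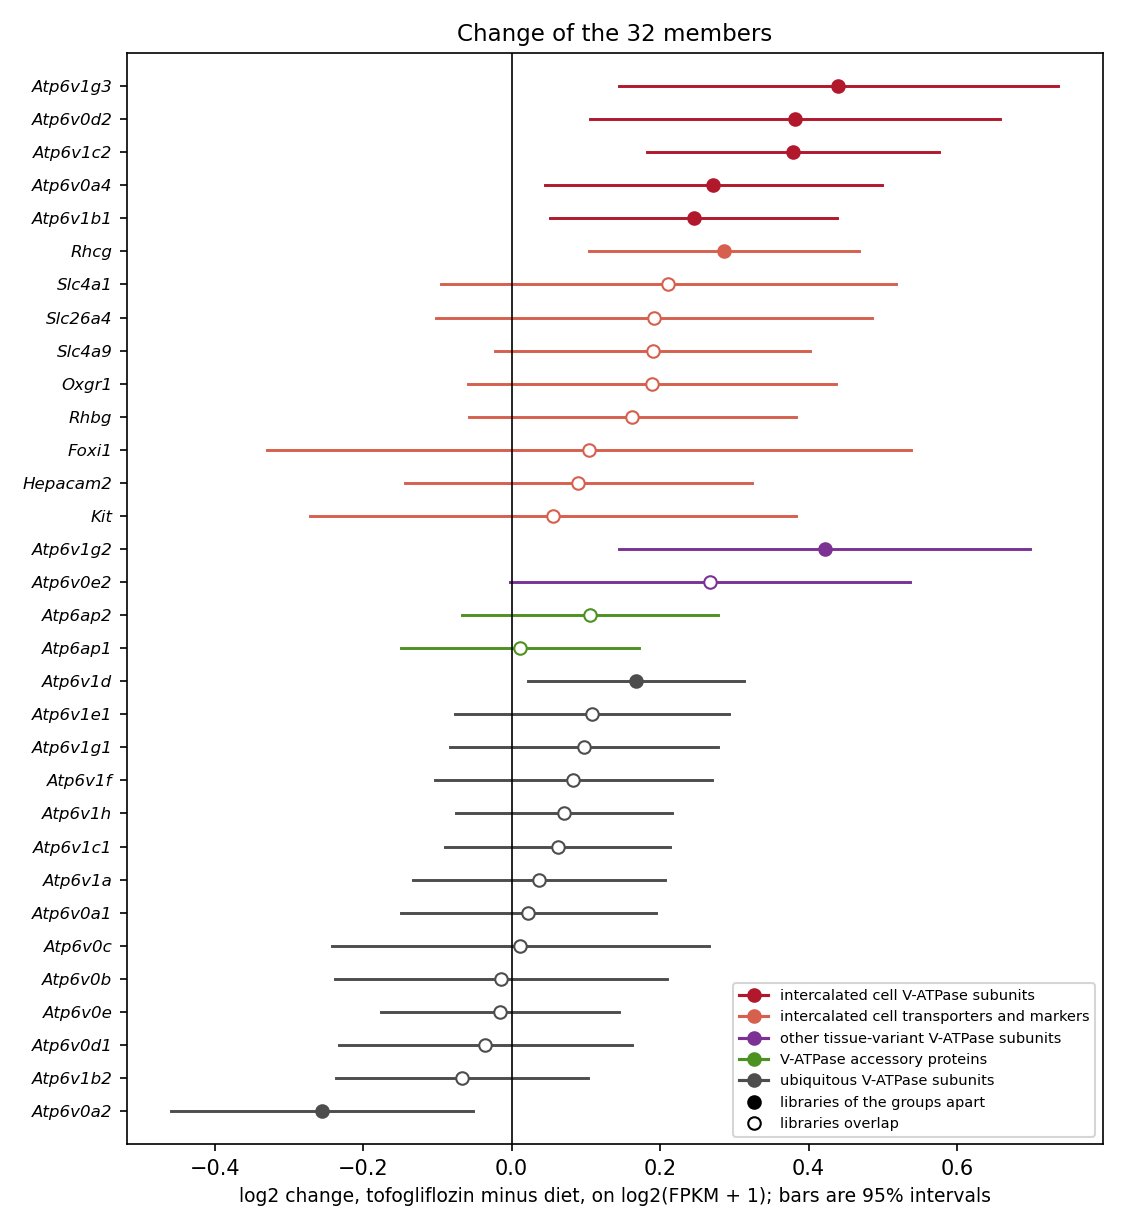
Log2 change (tofogliflozin minus diet, on the log2(FPKM + 1) scale) of each of the 32 members with its 95% interval from limma, grouped and coloured by role; filled points are genes whose libraries did not overlap between groups. The intercalated cell subunits lie between 0.25 and 0.44, the transporters and markers between 0.06 and 0.29, and the ubiquitous subunits between -0.26 and 0.17.

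Restricted and ubiquitous forms of the same subunit were then compared within each library, where a scaling between libraries cancels in shares of summed FPKM and nearly cancels in ratios on the log2(FPKM + 1) scale. Which cell types gave the transcripts of a4, d2 and the other restricted forms was not tested in this bulk RNA. The a4 form made up most of the summed FPKM of the a subunits. Its share of the summed FPKM of Atp6v0a1, Atp6v0a2, Tcirg1 (a3) and Atp6v0a4 was 80.5%, 77.0% and 82.7% with tofogliflozin, against 73.9%, 72.7% and 75.8% on diet. Atp6v0a2 and Tcirg1, both in that sum, had the lower mean with tofogliflozin. B1 was the smaller part of the B subunits, at 28.6% to 33.3% with tofogliflozin and 25.9% to 28.1% on diet. C2 made up 27.6%, 25.3% and 27.5% of the C subunits with tofogliflozin, against 22.9%, 21.7% and 22.8% on diet. In each of these 3 families the tofogliflozin libraries all had the larger share.

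The d2 share was 18.4% ± 1.72 with tofogliflozin and 14.3% ± 2.45 on diet, and the G3 share 11.8% ± 1.71 with tofogliflozin and 9.53% ± 1.85 on diet (SD, n = 3 each). The G3 libraries overlapped, since diet replicate 3 had 11.5% and tofogliflozin replicate 2 had 9.99%. Over 7 pairs of a restricted and a ubiquitous form, the log2 ratio was larger with tofogliflozin by 0.25 for Atp6v0a4 over Atp6v0a1 and by 0.53 for Atp6v0a4 over Atp6v0a2. It was larger by 0.42 for Atp6v0d2 over Atp6v0d1, 0.31 for Atp6v1b1 over Atp6v1b2, 0.32 for Atp6v1c2 over Atp6v1c1, 0.34 for Atp6v1g3 over Atp6v1g1 and 0.28 for Atp6v0e2 over Atp6v0e. The groups did not overlap in 6 of the 7 pairs. In each of the 6 the two-sided exact permutation test gave p = 0.1, the smallest that 3 libraries against 3 allow (0.117 after Benjamini-Hochberg adjustment over the 7 pairs). For Atp6v1g3 over Atp6v1g1 the exact permutation p was 0.2. Without diet replicate 1 the difference was 0.25 for Atp6v0d2 over Atp6v0d1, 0.20 for Atp6v1g3 over Atp6v1g1 and 0.17 for Atp6v0e2 over Atp6v0e. Pairs that share Atp6v0a4 are not independent, and Atp6v0a2 contributed to its pair by its own lower level with tofogliflozin.

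Promoter windows of 300 bases, 250 before and 50 after the start of the gene in RefSeq (GRCm38.p6), were found for 23 of the 32 members. They were searched on both strands for CACGTG, the E-box core known from promoters of lysosomal genes, for its longer form TCACGTG, and for TGTTTAC, a forkhead core of the kind that Foxi1-family factors bind. TCACGTG contains CACGTG, so both count the same places. CACGTG was present in 4 of 9 ubiquitous subunits (Atp6v0b, Atp6v0d1, Atp6v0e and Atp6v1a) and in 0 of 4 intercalated cell subunits, against 7.15% of all 32851 windows. The same 4 genes held TCACGTG, against 3.77% of all windows. TGTTTAC was present in 1 of the 4 intercalated cell subunits, Atp6v1b1, and in 0 of 6 transporters and markers, against 3.65% of all windows. Some windows, among them those of Atp6v0e and Atp6v1a, lie wholly inside the gene span of GENCODE. They come before the RefSeq start but not before the whole gene in that annotation. A match describes letters and is not evidence of binding.

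The 250 bases before the RefSeq start are shown for Atp6v1b1 and Atp6v0a4, both known from distal renal tubular acidosis. They are also shown for Atp6v0b and Atp6v1a, ubiquitous subunits with an E-box core there. Each runs 5′ to 3′ on the strand of the gene, with TGTTTAC in Atp6v1b1 and CACGTG in Atp6v0b and Atp6v1a in capitals. No searched motif was found in the Atp6v0a4 window. In Atp6v0d1 and Atp6v0e the matches touch the first 50 bases of the gene, which are not shown. The windows are chr6:83742767-83743016 (plus strand), chr6:38124587-38124836 (minus), chr4:117887330-117887579 (minus) and chr16:44139260-44139509 (minus).
Atp6v1b1: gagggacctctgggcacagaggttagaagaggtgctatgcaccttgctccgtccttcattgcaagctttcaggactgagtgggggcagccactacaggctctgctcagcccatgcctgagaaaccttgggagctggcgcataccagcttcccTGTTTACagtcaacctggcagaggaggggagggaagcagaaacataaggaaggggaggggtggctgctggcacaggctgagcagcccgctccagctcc
Atp6v0a4: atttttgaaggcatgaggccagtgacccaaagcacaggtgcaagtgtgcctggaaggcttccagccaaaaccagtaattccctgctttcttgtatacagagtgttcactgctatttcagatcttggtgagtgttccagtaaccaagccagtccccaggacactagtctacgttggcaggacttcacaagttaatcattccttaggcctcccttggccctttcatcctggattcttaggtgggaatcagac
Atp6v0b: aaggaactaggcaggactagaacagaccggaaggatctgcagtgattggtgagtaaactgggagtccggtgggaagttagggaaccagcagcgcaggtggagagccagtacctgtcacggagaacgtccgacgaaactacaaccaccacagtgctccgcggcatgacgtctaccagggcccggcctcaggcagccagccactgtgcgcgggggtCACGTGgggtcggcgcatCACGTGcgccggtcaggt
Atp6v1a: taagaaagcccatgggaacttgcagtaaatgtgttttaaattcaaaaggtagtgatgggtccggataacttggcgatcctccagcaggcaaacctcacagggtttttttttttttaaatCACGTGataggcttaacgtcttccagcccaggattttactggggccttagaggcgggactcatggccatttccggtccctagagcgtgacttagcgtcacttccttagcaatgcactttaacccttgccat

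Transporters of the intercalated cell came next. All 9 transporters and markers had a log2 change above 0 (median 0.19; 0.12 without diet replicate 1), although those of Foxi1, Kit and Hepacam2 turned below 0 when 1 library was left out, and Rhcg alone had an unadjusted limma p under 0.05 and its libraries apart. Rhcg, the ammonia channel of the collecting duct, was at 80.6, 72.0 and 78.9 FPKM with tofogliflozin, against 59.4, 67.4 and 62.5 FPKM on diet. Its lowest tofogliflozin library was replicate 2 and its highest diet library replicate 2. Means were 77.2 ± 4.56 FPKM with tofogliflozin and 63.1 ± 4.05 FPKM on diet (SD, n = 3 each), a log2 change of 0.29 ± 0.08 (SE, 95% interval 0.10 to 0.47; limma adjusted p = 0.199). The gene occupies 79593363 to 79617657 of chromosome 7 (minus strand).

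Rhbg, the basolateral ammonia transporter, was at 29.2, 22.9 and 27.5 FPKM with tofogliflozin, against 23.7, 23.9 and 22.9 FPKM on diet. Tofogliflozin replicate 2 fell inside the narrow diet range (log2 change 0.16; limma adjusted p = 0.521). The change was 0.09 without tofogliflozin replicate 1 and 0.26 without replicate 2. Rhbg shares 1190 of its 1937 exonic bases with Gm38392 on the same strand, so its value is uncertain. Slc4a1, the chloride/bicarbonate exchanger AE1 at the basolateral side of type A cells, was at 10.1, 8.80 and 10.1 FPKM with tofogliflozin, against 6.98, 10.2 and 7.65 FPKM on diet. Diet replicate 2 was the highest of the 6 libraries, so the groups overlapped (log2 change 0.21; limma adjusted p = 0.548). The change was 0.11 without diet replicate 1 and 0.36 without diet replicate 2. AE1 is also the band 3 protein of red cells. Summed over 7 measured erythroid markers, of which Hba-a1 alone passed the filter, the level was 7.57 to 46.4 FPKM with tofogliflozin and 2.92 to 55.1 FPKM on diet, and its part in Slc4a1 was not tested.

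The genes of type B cells had near-equal changes with overlapping libraries. Slc26a4, the apical chloride/bicarbonate exchanger pendrin, was at 31.0, 24.1 and 30.2 FPKM with tofogliflozin, against 21.6, 24.3 and 28.5 FPKM on diet. Slc4a9, the basolateral anion exchanger AE4, was at 43.9, 39.1 and 47.5 FPKM with tofogliflozin, against 37.9, 35.3 and 40.6 FPKM on diet. Tofogliflozin replicate 2 was below the top diet library in both. Oxgr1, the α-ketoglutarate receptor, was at 14.2, 11.4 and 14.3 FPKM with tofogliflozin, against 10.4, 12.2 and 12.0 FPKM on diet. Log2 changes were 0.19 for each of these genes, with limma adjusted p from 0.432 to 0.570. With 1 library left out, the change ran from 0.10 (without diet replicate 1) to 0.30 (without tofogliflozin replicate 2) for Slc26a4, and from 0.12 to 0.29 without the same libraries for Oxgr1. For Slc4a9 it was 0.13 without tofogliflozin replicate 3. For Slc4a1, Kit and Rhcg, grouped here as type A genes, the median log2 change was 0.21. No difference between the cell types was tested, nor whether Kit and Rhcg are limited to type A cells.

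Foxi1, Kit and Hepacam2 showed the smallest changes of the 9. Foxi1, the forkhead factor required for intercalated cell identity, was at 9.09, 9.78 and 9.62 FPKM with tofogliflozin, against 10.2, 10.96 and 5.95 FPKM on diet. Both diet replicates 1 and 2 were above all tofogliflozin libraries, and diet replicate 3 was far below. The log2 change was 0.10 (95% interval -0.33 to 0.54; limma adjusted p = 0.859), and it was -0.14 without diet replicate 3. Kit, the receptor tyrosine kinase used as a surface marker of intercalated cells, was at 3.89, 3.62 and 4.59 FPKM with tofogliflozin, against 4.02, 4.59 and 3.01 FPKM on diet, also lowest in diet replicate 3. Kit is expressed by mast cells too. Of 5 mast cell markers, 3 were listed at 0 in every library and the highest single value was 0.104 FPKM. Hepacam2, an immunoglobulin-like membrane protein, was at 10.3, 8.13 and 8.54 FPKM with tofogliflozin, against 8.41, 8.79 and 7.89 FPKM on diet (log2 change 0.09).

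**Figure D3:**
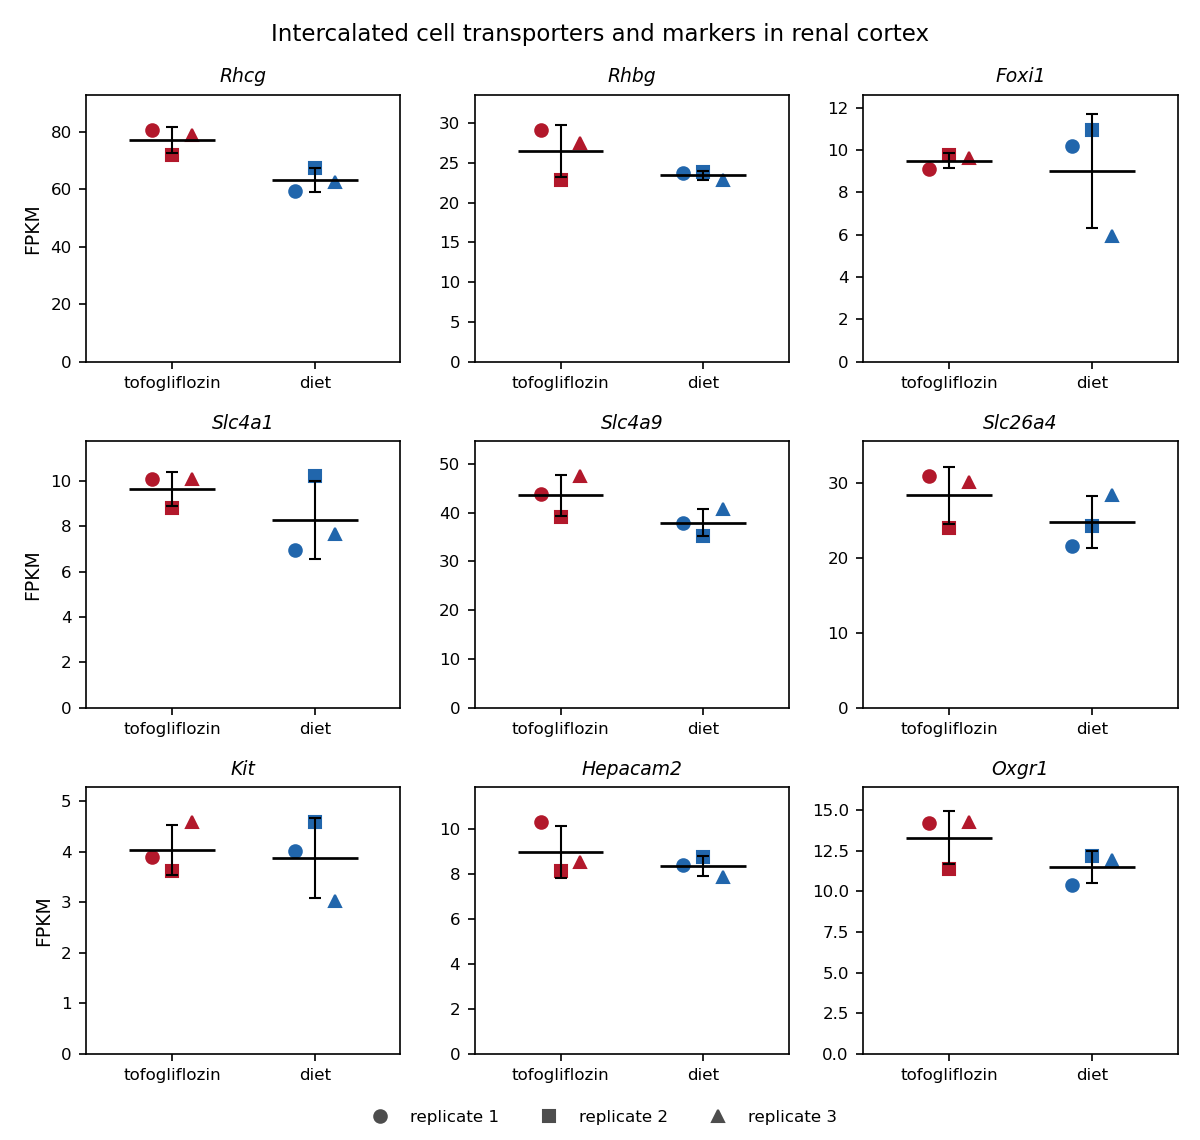
FPKM of the 9 intercalated cell transporters and markers, 1 point per library, with the group mean as a line and the SD as a bar (3 libraries per group, linear axes from 0). Rhcg is the panel without overlap, at 72.0 to 80.6 FPKM with tofogliflozin against 59.4 to 67.4 FPKM on diet, and Foxi1 shows 1 diet library at 5.95 FPKM below the other 5.

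Across libraries the 14 intercalated cell members shared a low place for 1 library. Tofogliflozin replicate 2 was the lowest of its group for 13 of the 14, and tofogliflozin replicates 1 and 3 held the highest of all 6 values for 6 and 5 of them. Diet replicate 2 was the highest of the 6 for the other 3, Slc4a1, Foxi1 and Kit. Diet replicate 1 held the lowest of the 6 values for 7 of the 14 and diet replicate 3 for 5. Within the diet group, replicate 3 was highest for 3 of the 5 subunits and replicate 2 for 7 of the 9 transporters and markers. The mean deviation from each gene's mean over the 6 libraries was 0.18, -0.03 and 0.19 (log2) with tofogliflozin, against -0.16, -0.06 and -0.13 on diet. The second tofogliflozin library sat near the diet libraries. For the 5 subunits alone the deviations were 0.24, 0.01 and 0.27 with tofogliflozin, against -0.24, -0.20 and -0.08 on diet. For the 14 ubiquitous subunits they were 0.004, 0.04 and -0.01 with tofogliflozin, against 0.03, -0.06 and 0.005 on diet.

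**Figure D4:**
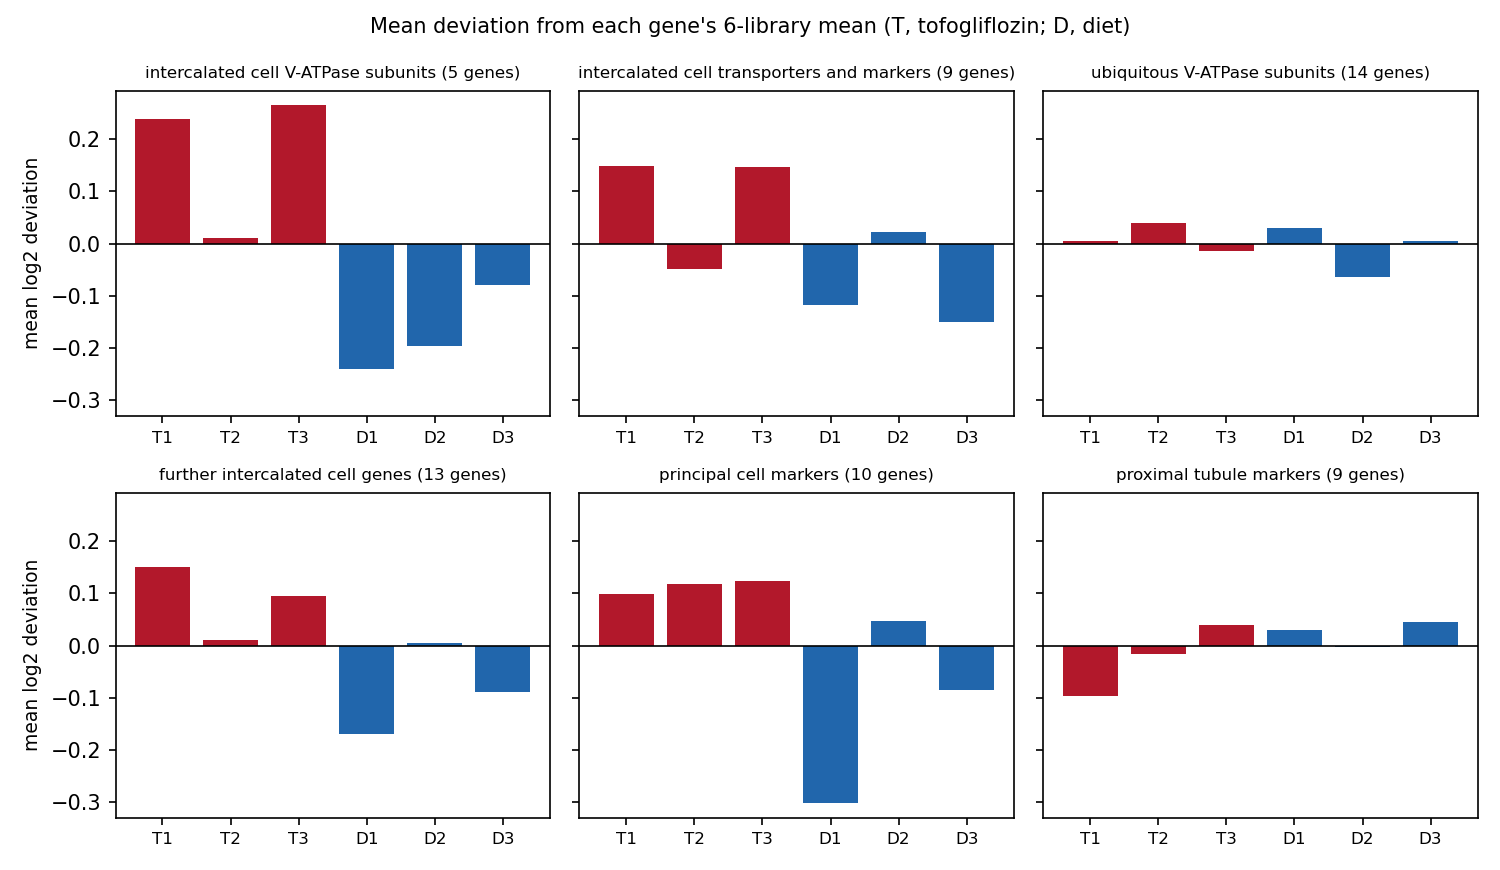
Mean deviation of each gene list from the genes' own means over the 6 libraries (log2(FPKM + 1) scale), 1 bar per library, with tofogliflozin replicates T1 to T3 and diet replicates D1 to D3. The intercalated cell subunits run from -0.24 to 0.27, the ubiquitous subunits stay between -0.06 and 0.04, and the principal cell markers are lowest in diet replicate 1, at -0.30.

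A wider list of 15 intercalated cell genes that are not among the 32 was set beside them. Of 13 that passed the filter, 12 had a log2 change above 0 (median 0.21), 4 had an unadjusted limma p under 0.05 with the higher mean with tofogliflozin, 6 had their libraries apart in that direction, and 0 passed after adjustment. Car15, a membrane carbonic anhydrase gene, was at 138, 145 and 129 FPKM with tofogliflozin, against 98.1, 99.2 and 107.5 FPKM on diet (limma adjusted p = 0.0719). Tmem213, the gene that overlaps Atp6v0a4, had a log2 change of 0.34 (limma adjusted p = 0.109). Car2, the cytosolic carbonic anhydrase II, was at 263, 262 and 274 FPKM with tofogliflozin, against 215, 245 and 209 FPKM on diet. Car2 is expressed in other tubule segments too.

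Factors that assemble and regulate the pump, listed together with further subunit genes such as Tcirg1, did not share this pattern of separation. Of 14 tested genes, 9 had a log2 change above 0 (median 0.06), and 0 had an unadjusted limma p under 0.05 or their libraries apart. The gene with the smallest p was Tcirg1, the a3 subunit used by macrophages and osteoclasts. It was at 12.7, 14.7 and 10.98 FPKM with tofogliflozin, against 15.2, 21.3 and 14.1 FPKM on diet (limma adjusted p = 0.382). Tmem199, Wdr7 and Rogdi, the next by p, had log2 changes of 0.13, -0.12 and 0.10. Macrophage markers, summed over 9 genes, were at 120, 144 and 94.5 FPKM with tofogliflozin, against 163, 301 and 113 FPKM on diet, and were also highest in diet replicate 2. Their part in Tcirg1 was not tested. Of 23 lysosomal genes, 9 had a log2 change above 0 (median -0.02). For 1 of them, Scarb2, the unadjusted limma p was under 0.05 with the higher mean with tofogliflozin, and for 3 (Gusb, Neu1 and Psap) with the lower mean.

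Markers of neighbouring tubule cells were set beside these too. Principal cells are the partner cells of the collecting duct. Of 10 tested principal cell markers, 8 had a log2 change above 0 (median 0.26), while Fxyd4 and Gata2 were below 0. An unadjusted limma p under 0.05 and libraries apart, with the higher mean with tofogliflozin, were found for 6. Over all tested genes those shares were 6.7% and 9.63%, and 0 of the markers passed after adjustment. Scnn1g, a subunit of the epithelial sodium channel, was at 17.9, 17.6 and 17.6 FPKM with tofogliflozin, against 12.8, 13.5 and 12.8 FPKM on diet (limma adjusted p = 0.0644). Aqp4, a basolateral water channel, was at 13.8, 10.4 and 13.3 FPKM with tofogliflozin, against 4.83, 8.17 and 7.84 FPKM on diet (limma adjusted p = 0.144). Summed over 11 genes, principal cell markers were at 392, 440.2 and 393 FPKM with tofogliflozin, against 293, 367 and 351 FPKM on diet. None was at 0 in all libraries, and the lowest defining marker was Elf5, at 0.225 to 0.569 FPKM with tofogliflozin and 0.0610 to 0.486 FPKM on diet. Tofogliflozin replicate 2 was the lowest of its group for 6 of the 10 tested markers.

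In other segments, 5 of 5 distal convoluted tubule markers had a log2 change above 0 (median 0.26), and 0 passed after adjustment. For 2 of them, Calb1 and Pvalb, the unadjusted limma p was under 0.05. Of 9 proximal tubule markers 4 were above 0 (median -0.12). For 1 of them, Slc5a12, the unadjusted limma p was under 0.05 with the higher mean with tofogliflozin, and for 2 (Slc22a6 and Slc7a13) with the lower mean. Summed proximal levels were 4030 to 4370 FPKM with tofogliflozin and 4390 to 4770 FPKM on diet. The median log2 change was -0.11 over 5 thick ascending limb markers, 0.13 over 5 podocyte markers, -0.01 over 7 endothelial markers and -0.45 over 9 macrophage markers. Whether a shift in the share of tubule segments within the dissected tissue took part in the values of the pump genes was not tested. Outside the intercalated cell, 8 genes of ammonia production and proximal bicarbonate handling were measured. Car14, a membrane carbonic anhydrase gene, had a log2 change of 0.57 (limma adjusted p = 0.0747). In this list 3 genes had an unadjusted limma p under 0.05 with the higher mean with tofogliflozin and 1, the proton exchanger Slc9a3, with the lower mean.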

How the data were processed

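Groups and replicate numbers come from the labels. Per the submitters' processing notes, the tools were Cuffdiff 2.2.1, SAMtools 0.1.18, TopHat2 2.1.1 and Bowtie2 2.2.8, with build mm10. No source used here states their roles, the annotation or how libraries were scaled. The authors deposited FPKM values per gene symbol, 1 file per library. From these, log2(FPKM + 1) was compared with limma 3.58.1 in R 4.3.3 (mean-variance trend, two-sided, Benjamini-Hochberg over 12248 genes). On this scale the change of low genes is understated. Error terms are limma's SE or the SD of 3 libraries. The labels give 3 mice per group. Replicate numbers were not used as pairs. Depth was estimated from low FPKM values of single-transcript genes, multiplied by transcript length. Only products within a fixed range were used, which bounds the depth this can return. Counting errors from this estimate cover counting only. The fit was run on simulated data with independent noise, as a check of the code only.

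The members and gene lists were chosen with earlier results of these data known. All members are named. Per-library values are given for the intercalated cell genes, their ubiquitous counterparts and members with unadjusted p under 0.05 or separated libraries, and other lists give up to 4 genes of smallest p, of which some are not reported here. Atp6v1a, and the checks Slc34a1, Pdia6, D630045J12Rik, Elf5 and Atp6v0c-ps2, were added after their values were seen. Alternatives were a pseudocount of 0.1, other filters and scalings, no trend, the replicate block and leaving out each library. Plots used Python 3.11.15 with matplotlib 3.10.9.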

Additional observations from a re-analysis of the deposited data

How the results depend on the processing

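With a pseudocount of 0.1, no filter, a filter of 5 FPKM, upper-quartile scaling, quantile normalization, no trend or any 1 library left out, 0 members passed adjusted limma p under 0.05, and the 5 intercalated cell subunits had changes above 0. Upper-quartile scaling and quantile normalization moved the median of all tested genes to 0.011 and 0.0018. With a library left out, members with an unadjusted p under 0.05 numbered 5 to 12 (5 without tofogliflozin replicate 3 or diet replicate 1; 8.71% to 16.1% of all tested genes over these settings), and members with separated libraries 11 to 15 (15 without tofogliflozin replicate 2, 14 without diet replicate 2; 25.4% to 34.6% of all tested genes). Separation is easier to reach with fewer libraries. The median change of the intercalated cell subunits ran from 0.28 (without diet replicate 1) to 0.43, and that of the transporters and markers from 0.12 to 0.26. With a library left out, the limma adjusted p of Atp6v1c2 and Rhcg ranged up to 0.440 and 0.520. Among single genes, quantile normalization gave 0.0077 for Atp6v0b, -0.014 for Atp6v1a and -0.021 for Atp6ap1, with the sign changed. With a library left out, the sign also changed for Atp6v0a1 (-0.016 to 0.053), Atp6v0b (-0.11 to 0.035), Atp6v0c (-0.055 to 0.11), Atp6v0d1 (-0.12 to 0.027), Atp6v0e (-0.057 to 0.012), Atp6v1a (-0.0051 to 0.071), Atp6ap1 (-0.012 to 0.053), Foxi1 (-0.14 to 0.25), Kit (-0.077 to 0.16) and Hepacam2 (-0.0034 to 0.15). The cause was not tested. The ratios between subunit forms stayed larger with tofogliflozin in the settings run. Without diet replicate 1 they did so by less, except for Atp6v1c2 over Atp6v1c1 (0.33). Without tofogliflozin replicate 3 the difference was 0.19 for Atp6v0a4 over Atp6v0a1 and 0.41 for Atp6v0a4 over Atp6v0a2. In that setting it was 0.24 for Atp6v1b1 over Atp6v1b2.

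Deviations of same-numbered libraries correlated at -0.0549, -0.0623 and 0.0514, and those of the other pairs at -0.138 to 0.188. Deviations from a group mean constrain one another, so this check cannot settle whether the replicate numbers pair libraries. With the replicate block, 9 members had an unadjusted limma p under 0.05 (11% of all tested genes), with Atp6v0e2 in place of Atp6v1d, 0 passed after adjustment, and the median change of the intercalated cell subunits was 0.38. Among the members, the estimated counting error was largest for Atp6v1g2, Foxi1 and Kit. It was 17.6%, 9.3% and 8.76% in the library where each had the fewest fragments. Foxi1 varied by more than that on diet, at 9.03 ± 2.70 FPKM (mean and SD).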
